A study of Homo sapiens with 9 samples.

Results

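The comparison described here is between OCI-Ly1 cells that carry the shRNA sh68 against KDM1A and OCI-Ly1 cells that carry a scrambled control shRNA (shSCR). OCI-Ly1 is an established human cell line from a diffuse large B-cell lymphoma with the germinal-centre profile. The members were taken by the column names of the count table, which gave 3 sh68 and 3 shSCR libraries, 6 of the 9 in the series. The other 3 libraries carry sh72, the other of the 2 shRNAs against KDM1A. All cells expressed their shRNA from the pLKO1 vector and were selected with puromycin, so the controls share the vector and the drug. The study states biological triplicates of polyadenylated RNA and 1 parental line. The sources used here do not give the time between transduction and harvest. The sample titles number the shRNAs and do not say which number is sh68, so the name in the table is used. Of 26816 genes in the table, 15725 passed the filter on low counts and were tested, and 11091 were not tested.

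KDM1A encodes LSD1, an enzyme that takes methyl groups off lysine 4 of histone H3. It acts in a corepressor complex with CoREST and the histone deacetylases HDAC1 and HDAC2, and it is brought to DNA by repressors such as GFI1, GFI1B, the ZEB factors and, in germinal-centre B cells, BCL6. In the germinal centre, BCL6 holds B cells in a dividing, antibody-editing state and keeps genes of activation and of plasma cell fate low. Loss of LSD1 has been studied in other tumours for its link to double-stranded RNA and interferon responses. The comparison asks which RNAs are higher or lower in lymphoma cells after depletion of LSD1 with sh68.

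The 6 libraries held 29506767 to 35270849 counted reads. Mitochondrially encoded genes took 5.23 ± 0.0905% of reads in shSCR and 5.37 ± 0.138% in sh68 (SD, n = 3 each, two-sided exact permutation p = 0.3). At least 1 read was seen for 20894.7 ± 229.4 genes in shSCR and for 21708.3 ± 85.3 in sh68 (two-sided exact permutation p = 0.1, the smallest that 3 libraries against 3 allow). The main axis of variation, with 76.2% of the variance, separated the groups, at -38.7 to -36.7 for shSCR and 35.2 to 39.2 for sh68. The B-cell markers MS4A1, CD79A, CD79B, PAX5 and CD22 each stood at 533.3 to 1065 CPM (reads of a gene scaled to a common library size) in all 6 libraries, so markers of a B-cell line were present in every one. Of the germinal-centre markers, BCL6, MME and RGS13 stood above 300 CPM in every library, while MEF2B stood at 0.312 to 0.711 CPM. Markers of natural killer cells summed to 0.309 to 0.638 CPM in shSCR and 1.08 to 1.29 CPM in sh68, those of monocytes to 0.278 to 0.351 and 0.937 to 1.29 CPM, and those of stroma to 0.433 to 0.589 and 1.504 to 1.82 CPM, with COL1A2 and LUM at 0 reads in all 6. Those of T cells summed to 1.34 to 1.87 and 0.614 to 1.19 CPM and those of erythroid cells to 0.223 to 0.277 and 0.114 to 0.398 CPM. Epithelial markers summed to 15.2 to 18.1 CPM in shSCR and 7.52 to 8.89 CPM in sh68, nearly all of it EPCAM, with KRT19 at 0 reads. The part of these genes in any other result was not tested.

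KDM1A, on chromosome 1 (GRCh38.p14, 23019468 to 23083689), fell strongly in every sh68 library. It had 3915, 3463 and 3850 reads in the shSCR libraries and 761, 847 and 910 in the sh68 libraries, or 121.2 ± 1.44 and 24.4 ± 1.26 CPM (SD, n = 3). The groups did not overlap. The log2 fold change was -2.31 ± 0.054 (SE, edgeR quasi-likelihood test, adjusted p = 2.76e-20), and the two-sided exact permutation p was 0.1, the smallest possible here. KDM1B, the paralogous demethylase, stood at 56.8 CPM in shSCR and 57.9 CPM in sh68 and did not pass (0.03 ± 0.044, adjusted p = 0.623).

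Across all genes tested, sh68 was followed by many small changes and fewer large ones. In all 8727 genes passed at an adjusted p below 0.05 (55.5% of those tested), 4309 higher (27.4%) and 4418 lower (28.1%), and the median log2 fold change of all genes was -0.0082. Of the genes that passed, 5872 (67.3%) changed by less than 1.5-fold. With a null of at most 1.5-fold change in the same fit, 1477 genes passed, 1142 higher and 335 lower. At least 2-fold changes were counted for 1174 genes that rose (7.47%) and 276 that fell (1.76%), and at least 4-fold changes for 279 (1.77%) and 45 (0.286%). All 3 sh68 libraries lay above all 3 controls for 4818 genes (30.6%) and below them for 5021 (31.9%). These shares are the background for every list below, but they depend on the control level. The share called lower was 4.87% under 1 CPM, 39.2% at 10 to 100 CPM and 44.2% over 100 CPM in shSCR. For lists of abundant genes the share of their level is therefore the closer background. Fewer cells with an RNA and less of it per cell cannot be told apart in bulk libraries.

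Large rises sat mostly among genes with few reads in control cells. Of the 279 genes at least 4-fold higher, 238 were under 1 CPM in shSCR, and 23 exceeded 10 CPM in sh68. Of the 45 at least 4-fold lower, 32 were over 1 CPM in shSCR, but only 3162 of the 15725 genes tested were under 1 CPM. Falls of at least 2-fold were called for 93 of 3162 genes under 1 CPM and 106 of 3708 at 1 to 10 CPM. At 10 to 100 CPM they were called for 51 of 6170 and over 100 CPM for 26 of 2685. Large falls were therefore not more frequent at high control levels. Among genes under 1 CPM in shSCR, 1012 rose and 154 fell, and among those over 100 CPM, 652 rose and 1186 fell. The filter bears on the lowest band, since genes with the fewest reads in shSCR could pass it only where another group was higher. This also holds for such members of the lists below, for example FCER2, CCND2, GRIN1, CACNA1D and SLC2A3. Counts of rises in their lists are raised by it. Long noncoding RNAs numbered 1633 among the genes tested, of which 31.5% rose and 9.43% fell, against 27.5% and 32.7% of 12302 protein-coding genes. The classes were not matched by level. Among all genes tested, 32.0% rose and 4.87% fell under 1 CPM, and 30.4% rose and 17.8% fell at 1 to 10 CPM. Of the 279 strong rises, 58 were long noncoding RNAs and 194 coded for protein.

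**Figure D1:**
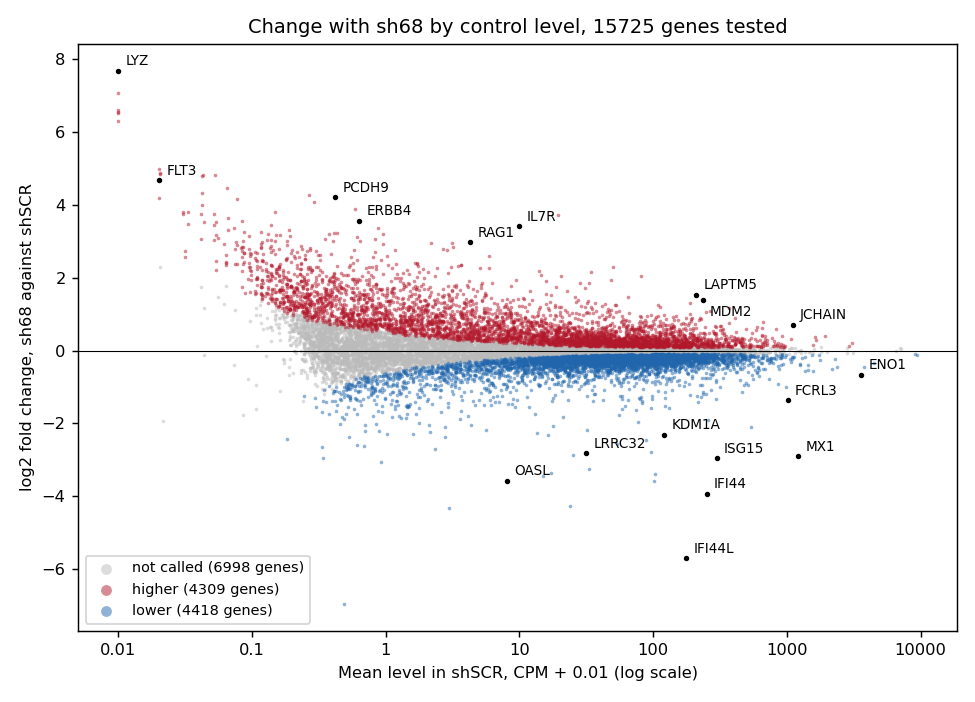
Log2 fold change of sh68 against shSCR (vertical axis) by the mean control level in CPM plus 0.01 (horizontal log axis), 1 point per gene tested, red for the 4309 genes called higher, blue for the 4418 called lower and grey for the rest. Interferon-stimulated genes such as IFI44L (-5.71) and MX1 (-2.90) stand below the cloud at high control levels, IL7R (3.41) and RAG1 (2.97) above it. Points at the left edge have no or almost no control reads, and their fitted heights are not bounds.

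**Figure D2:**
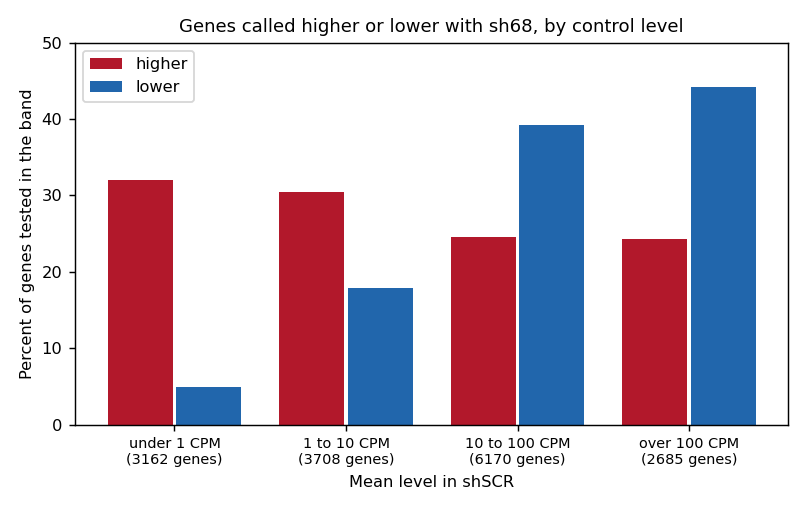
Percent of tested genes called higher (red) and lower (blue) in 4 bands of the mean control level. The share called lower goes from 4.87% under 1 CPM to 44.2% over 100 CPM, and the share called higher from 32.0% to 24.3%.

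Interferon-stimulated genes formed the group with the largest falls. Type I interferon acts through its receptor to activate STAT factors, which join IRF9 and bind the interferon-stimulated response element, a tandem of short GAAA-like blocks, in front of antiviral genes. Of 50 genes written on this list, 47 were tested, of which 44 fell, LAMP3 rose (0.43), and RTP4 (-0.15) and TRIM5 (-0.10) did not pass. Their median was -1.34, against -0.0082 over all genes tested, and 28.1% of all genes fell. Apart from LRRC32 and SLFN5, all genes with the 15 largest falls under the naming rule were members of the list, and SLFN5, a Schlafen protein, is itself known as an interferon-induced gene.

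IFI44L, a cytoplasmic interferon-induced protein, stood at 186.5, 164.0 and 179.5 CPM in the shSCR libraries and at 2.33, 4.10 and 3.63 CPM in sh68. Its fall was 52.2-fold (log2 -5.71 ± 0.091, adjusted p = 1.51e-23), the largest by the naming rule. Its chromosome 1 neighbour IFI44 stood at 259.4, 247.1 and 244.9 CPM in shSCR and at 13.7, 16.5 and 18.9 CPM in sh68 (-3.93 ± 0.069, adjusted p = 8.83e-23). The control libraries of both genes were all far above the sh68 libraries. IFIT1, which binds viral RNA that lacks host cap methylation, went from 26.1, 23.3 and 22.4 CPM to 1.07, 1.20 and 1.45 CPM (-4.26 ± 0.117, adjusted p = 5.26e-19). DDX60, a helicase of the RNA-sensing pathway, went from 109.7, 99.0 and 93.2 CPM to 7.12, 8.32 and 9.51 CPM (-3.59 ± 0.080, adjusted p = 1.22e-20). Again no sh68 library reached a control library.

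MX1, a GTPase that traps viral nucleocapsids, held the most control reads of the list, at 1314, 1198 and 1150 CPM in shSCR and 145.4, 167.4 and 176.7 CPM in sh68 (-2.90 ± 0.072, adjusted p = 8.18e-20). It also had the second largest loss in CPM of all genes that met the naming rule, after the glycolytic enzyme ENO1. ISG15, a ubiquitin-like modifier, stood at 347.7, 289.6 and 260.3 CPM in shSCR and at 37.2, 39.6 and 39.4 CPM in sh68 (-2.95 ± 0.101, adjusted p = 2.8e-17). The controls of ISG15 spread by 44.4 CPM (SD) and still lay well above sh68. USP18, which removes ISG15 from proteins and dampens the interferon receptor, fell by 3.44, and OASL, a member of the oligoadenylate synthetase family, fell by 3.57 on the log2 scale. The other falls of this rank were XAF1 (-3.39), IFIT3 (-3.37), RSAD2 (-3.26), IFITM1 (-2.88) and IFI6 (-2.79). Smaller falls were seen for the RNA-sensing synthetases OAS1 (-1.42), OAS2 (-1.25) and OAS3 (-1.32), the RNA-dependent kinase EIF2AK2 (-0.95), the RNA editing enzyme ADAR (-0.99) and the tethering factor BST2 (-1.21). Annotated exons of IFITM1 overlap IFITM2 and those of RSAD2 overlap CMPK2. As the strand setting of the counting is unknown, reads of such pairs cannot be assigned with certainty.

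The promoters of the genes that fell most carry the letters of the response element more often than promoters at large. The motif searched was GAAA, any 2 bases, then GAAA again, on both strands in the 250 bases before the RefSeq start (GRCh38.p14). It was in 288 of 11385 promoters of tested genes (2.53%) and in 3.07% of those of all 27305 symbols in the RefSeq promoter table. It was in 22 of 167 promoters of genes that fell at least 2-fold (13.2%), in 8 of 26 of those that fell at least 4-fold (30.8%), and in 21 of 758 of those that rose at least 2-fold (2.77%). Within the interferon list 22 of 38 promoters had it (57.9%), and 20 of these 22 genes fell. Outside the list, 266 tested genes had the motif, of which 88 fell (33.1%), 64 rose (24.1%) and 5 fell at least 2-fold, so the motif alone went with little beyond the background. A match is a description of letters and not a measured binding site. For a gene with several starts in the promoter table the first was used, and the starts used for DDX60 and XAF1 lie inside the gene's span. Stretches with the matches are printed for 6 of the 15 largest falls, to show where the blocks lie, in the direction of transcription with the match, in either orientation, in capitals.

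IFI44L, chr1:78620254-78620414, plus strand: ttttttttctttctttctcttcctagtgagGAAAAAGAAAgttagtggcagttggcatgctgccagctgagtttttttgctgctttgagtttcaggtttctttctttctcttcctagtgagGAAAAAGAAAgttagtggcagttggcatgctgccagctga
IFI44, chr1:78649741-78649788, plus strand: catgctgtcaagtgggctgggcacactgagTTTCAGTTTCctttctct
IFIT1, chr10:89392477-89392559, plus strand: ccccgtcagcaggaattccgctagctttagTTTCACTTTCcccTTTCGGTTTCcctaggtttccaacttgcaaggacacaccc
DDX60, chr4:168318766-168318870, minus strand: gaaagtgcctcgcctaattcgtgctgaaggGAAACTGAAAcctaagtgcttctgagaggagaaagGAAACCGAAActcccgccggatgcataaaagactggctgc
ISG15, chr1:1013354-1013429, plus strand: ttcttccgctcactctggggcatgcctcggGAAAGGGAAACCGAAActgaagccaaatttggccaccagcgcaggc
IFI6, chr1:27672246-27672378, minus strand: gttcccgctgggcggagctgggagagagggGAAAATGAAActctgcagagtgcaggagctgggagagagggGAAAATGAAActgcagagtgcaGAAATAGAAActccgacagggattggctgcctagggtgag

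IFI44L shows the block as a tandem repeat, IFIT1 as a reverse-strand pair and ISG15 as 2 overlapping matches. In IFI44 the only match ends 8 bases before the start. The windows used for MX1, RSAD2 and XAF1 have no match to these letters, and the other starts that the table lists for these genes were not searched.

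The transducers of the interferon signal fell as well, while genes of the type I receptor and its kinases rose or did not pass. IRF9, a subunit of the activator at the end of the receptor pathway, went from 82.4, 82.8 and 80.2 CPM to 29.1, 29.3 and 32.3 CPM (-1.43 ± 0.050, adjusted p = 4.31e-17) and STAT2 fell by 0.61. IRF7, which amplifies the response, fell by 2.30 from 1.51, 1.90 and 1.37 CPM to 0.368, 0.313 and 0.284 CPM, and IRF3, which starts it, by 0.75. The receptor chain IFNAR2 (0.42) and the kinases JAK1 (0.36) and JAK2 (0.49) rose, and IFNAR1 (0.03) and TYK2 (0.08) did not pass. IFNGR1 (-0.13), of the type II receptor, fell. Of 21 genes written for interferon signalling 18 were tested, 4 rose and 7 fell.

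Sensors of foreign or misplaced nucleic acid changed in both directions. Of 20 written, 17 were tested, 10 fell and 4 rose, with a median of -0.42. The RNA-sensing helicases DHX58 (LGP2, -2.17 ± 0.072), DDX58 (RIG-I, -1.36 ± 0.059) and IFIH1 (MDA5, -0.54) fell, as did TRIM25 (-1.19), the ligase that modifies RIG-I, the Toll-like receptor adaptor MYD88 (-0.95) and the DNA receptors TLR9 (-0.77) and IFI16 (-0.44). The 4 that rose were the DNA sensors MB21D1 (cGAS, 0.92) and AIM2 (0.95), the cGAS adaptor TMEM173 (STING, 0.92) and TRAF3 (0.33). Of 16 genes for RNA interference or for binding and editing double-stranded RNA, 7 fell and 4 rose. DICER1 (-0.28), XPO5 (-0.27) and AGO2 (-0.14) were among the former and ADARB1 (1.18), a second RNA editing enzyme, among the latter.

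**Figure D3:**
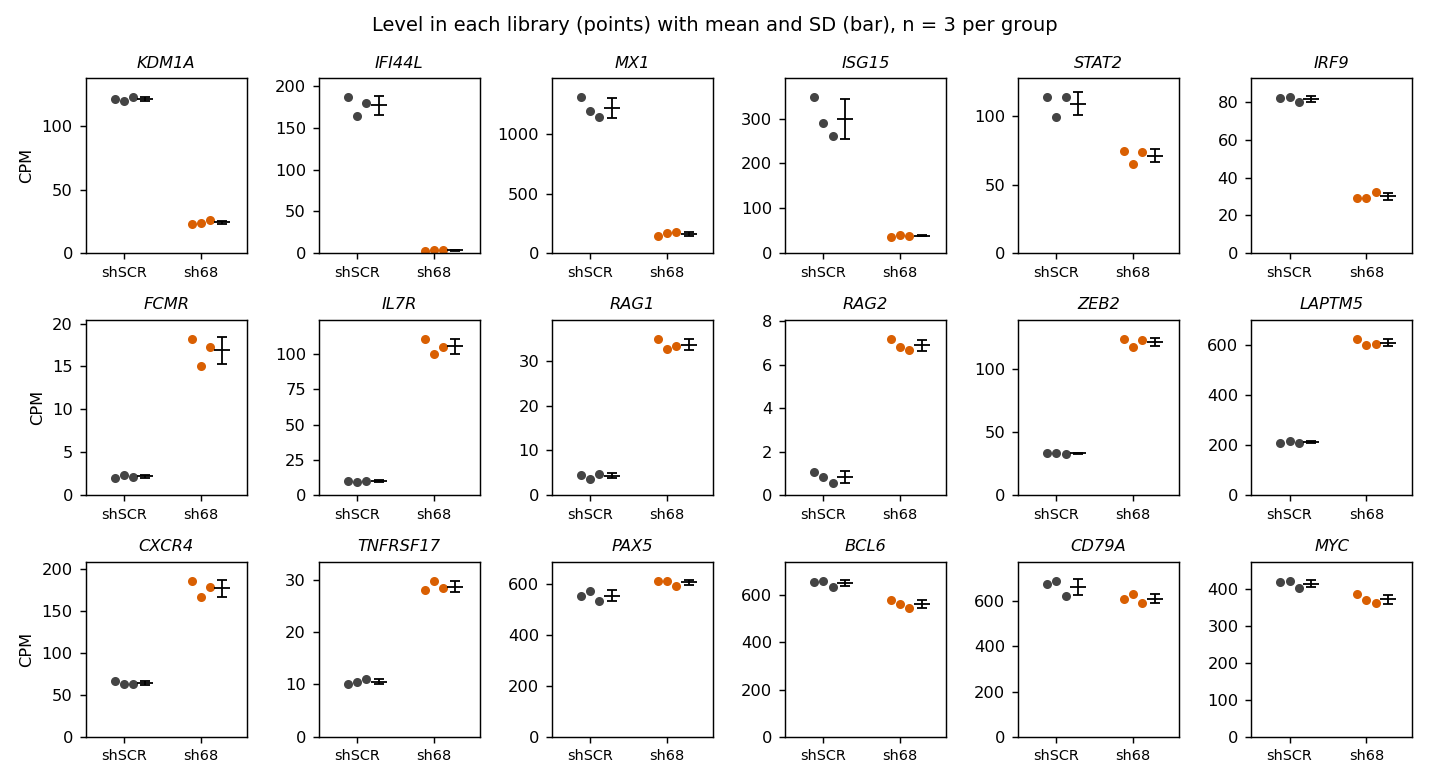
Level in CPM (vertical axis, from 0) of 18 genes in each shSCR (grey) and sh68 (orange) library, with mean and SD over 3 libraries. KDM1A and 5 genes of the interferon response are lower in every sh68 library, FCMR, IL7R, RAG1, RAG2, ZEB2, LAPTM5, CXCR4 and TNFRSF17 are higher in every one, and CD79A overlaps between the groups.

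Among the genes that rose most was a cytokine receptor of early lymphocytes. IL7R, the receptor chain through which interleukin 7 sustains lymphocyte precursors, went from 10.2, 9.42 and 10.1 CPM to 110.7, 100.2 and 105.2 CPM, a fold of 10.6 (3.41 ± 0.058, adjusted p = 4.71e-23). The lowest sh68 library was many times the highest control.

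Genes that textbooks assign to B-cell precursors rose beside IL7R. RAG1 and RAG2 encode the recombinase that assembles antibody genes in precursors and is shut off in mature B cells. RAG1 stood at 4.48, 3.67 and 4.72 CPM in shSCR and at 35.0, 32.7 and 33.5 CPM in sh68 (2.97 ± 0.087, adjusted p = 1.84e-18). RAG2 stood at 1.08, 0.831 and 0.542 CPM and at 7.18, 6.84 and 6.67 CPM (3.06 ± 0.171, adjusted p = 2.83e-13). Both were higher in every sh68 library, and their annotated exons overlap each other. A list of 20 precursor genes was written after these values were seen, and so is a description only. Of its 16 tested genes 13 rose, IL7R, RAG1 and RAG2 among them, VPREB3 fell (-0.91), and SOX4 (0.13) and BLNK (-0.07) did not pass. Over all genes tested 27.4% rose, but a list written in this way cannot be tested against that share. The rest of the 20 were in the count table but had too few reads to be tested, with sh68 as well. VPREB1, a part of the surrogate light chain, had 12, 7 and 7 reads in shSCR and 151, 178 and 166 in sh68 (4.08 ± 0.211, adjusted p = 6.74e-14). The transcription factors of the lineage moved less, with LEF1 at 0.90, FOXO1 at 0.82, TCF3 at 0.35, EBF1 at 0.27 and PAX5 at 0.13. FLT3, a receptor kinase of early progenitors, had 1 read over the control libraries and 38 over sh68, a ratio of 34.2 with an exact 95% counting interval of 5.78 to 1385. FLT3 passed the filter on low counts only through its sh68 reads. VPREB1 had 7 reads in control libraries 2 and 3, under the filter's minimum count of 10, so its sh68 reads bore on its passing too.

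The other large rises by the naming rule that are reported here came from low control levels. PCDH9, a protocadherin, went from 0.495, 0.346 and 0.383 CPM to 8.26, 6.87 and 7.81 CPM (4.21 ± 0.174, adjusted p = 9.69e-16), and ERBB4, a receptor tyrosine kinase, from 0.897, 0.623 and 0.351 CPM to 7.83, 6.32 and 8.23 CPM (3.57 ± 0.188, adjusted p = 9.5e-14). FCMR, the Fc receptor for IgM on B cells, went from 2.04, 2.32 and 2.14 CPM to 18.2, 15.1 and 17.3 CPM (2.96 ± 0.110, adjusted p = 1.37e-16). None of these groups overlapped. PRR5L, a partner of mTORC2, rose by 3.36, PDE4A, a cyclic AMP phosphodiesterase, by 3.01, MYL4, a myosin light chain, by 3.21, MYBPC1, a muscle myosin-binding protein, by 3.13 and COL19A1, a collagen chain, by 2.93 on the log2 scale. TMEM71 (3.21), DTHD1 (3.19) and the noncoding RNA PART1 (2.95) were the other genes reported. Exons of PART1 overlap PDE4D and those of COL19A1 overlap LMBRD1.

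Rises of at least 2-fold were often next to each other on the chromosome. Of 1028 such genes with a position, 293 (28.5%) had a neighbour among tested genes with the same call, whereas 13.4% of all 14505 placed genes had a neighbour with that call. For falls of at least 2-fold the shares were 18.8% of 245 and 3.26%. Neighbours that share exons or sequence were left in these counts, and reads of such pairs cannot be assigned with certainty. At the RAG locus on chromosome 11, PRR5L (36296288 to 36465204), RAG1 (36510353 to 36579762), RAG2 (36590996 to 36598236) and C11orf74 (2.40 ± 0.401, from 0.118 CPM) rose, although C11orf74 shares exon sequence with RAG2. TRAF6, which lies between PRR5L and RAG1, had -0.09 ± 0.065 and did not pass (adjusted p = 0.271), and COMMD9 on the outer side fell (-0.32). Of 546 overlapping windows of 50 tested genes, the one with the highest median (0.48) was on chromosome 12 from 7094554 to 12471233, with 27 genes higher and 7 lower. It holds the natural killer gene complex, where CLEC2D, a lectin-like ligand of lymphocytes, rose from 30.7 to 101.0 CPM (1.72, adjusted p = 1.58e-18). KLRC2, KLRC3 and KLRC4, lectin-like receptors, rose by 2.60, 2.19 and 1.95, but their sequences are alike and reads may be split among them. KLRD1, which lies in the same complex and is a natural killer marker, rose from 0.216, 0.242 and 0.223 CPM to 1.14, 0.912 and 0.823 CPM (2.05 ± 0.313, adjusted p = 5.93e-06). The other 4 natural killer markers were low, with NKG7 at 0.0928 to 0.383 CPM in shSCR and 0.114 to 0.256 CPM in sh68, and NCAM1, KLRF1 and GNLY at no more than 0.0346 CPM in any of the 6 libraries. CLEC2D and the KLRC genes were chosen after their values were seen. The lowest window (-0.30) was on chromosome 11 from 59142856 to 62621986, with 4 genes higher and 33 lower. By chromosome, the share of genes that rose was highest on chromosomes 18 (42.0% of 200) and 13 (38.2% of 272), and the share that fell was highest on chromosome 11 (41.2% of 832).

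Genes of the germinal-centre programme moved in both directions. Of 36 written, 34 were tested, 18 rose and 9 fell, with a median of 0.19. Rises were seen for SUGCT (1.55), GCSAM (0.91), which restrains lymphocyte motility, TCL1A (0.89), MEF2C (0.85), MYBL1 (0.68) and MME (CD10, 0.40). LMO2 (-1.46 from 2.21 CPM) and SERPINA9 (-1.11 from 6.05 CPM), markers of this lymphoma type, fell. BCL6 stood at 655.5, 660.8 and 635.2 CPM in shSCR and at 580.4, 563.2 and 547.0 CPM in sh68, a small fall (-0.21 ± 0.037, adjusted p = 5.3e-05) without overlap. Identity markers of B cells hardly moved. MS4A1 (CD20, -0.07) and CD79A (-0.12, adjusted p = 0.0536) did not pass, CD79B fell by 0.14, and PAX5 (0.13) and CD22 (0.12) rose.

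Plasma cell genes rose in part and from uneven levels. Of 23 written, 19 were tested, 7 rose and 3 fell, with a median of 0.18. TNFRSF17 (BCMA), a survival receptor of plasma cells, rose from 10.1, 10.46 and 11.1 CPM to 27.97, 29.8 and 28.4 CPM (1.45), XBP1, the activator of the secretory programme, from 41.1 to 80.6 CPM (0.97), and the joining chain JCHAIN from 1107 to 1808 CPM (0.71), which was the largest gain in CPM by the naming rule. SDC1 (CD138, 1.32) and IRF4 (1.83 ± 0.346) also rose. IRF4 had 0.255 to 0.371 CPM in shSCR and 0.655 to 1.56 CPM in sh68, and PRDM1, the master regulator of the fate, had 0.268 and 0.323 CPM and did not pass (0.25 ± 0.383, adjusted p = 0.606). Exons of JCHAIN overlap ENAM. Of 29 genes of memory and activated B cells, 22 were tested, 9 rose and 5 fell, with a median of 0.20. FCER2 (CD23, 3.56 from 0.0741 CPM), the early activation marker CD69 (2.14 from 0.403 CPM) and the costimulatory ligand CD80 (1.35 from 2.31 CPM) rose from low levels. FCRL3, an inhibitory receptor, fell from 1015 to 395.9 CPM (-1.36) and EGR1, an immediate early factor, from 2.56 to 0.802 CPM (-1.67).

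Of 32 genes that BCL6 is known to repress, 31 were tested, 14 rose and 9 fell, with a median of 0.16. CCND2 (2.81 from 0.126 CPM), CD69, IRF4, BTLA (1.67), CXCR4, CD80, CCR6 (0.91), GPR183 (0.86) and IL21R (0.79) rose. PTPN6 (the phosphatase SHP-1, -1.63 ± 0.052), ID2 (-1.06) and TNFAIP3 (-0.77) fell. Among 18 corepressors of BCL6, 5 rose and 7 fell, with HDAC9 (1.24) as the largest change. The median of this list was 0.034 and -0.0069 when offsets for transcript length and GC content were added.

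LSD1's own partners and recruiters changed unevenly. Apart from KDM1A, the CoREST list of 13 showed small falls in RCOR2 (-0.49), HMG20B (-0.45) and ZMYM3 (-0.38) and small rises in RCOR1 (CoREST1, 0.22), HDAC1 (0.15) and HDAC2 (0.09, adjusted p = 0.0402). In all 3 rose and 7 fell, KDM1A included. Of 19 repressors that recruit LSD1, 14 were tested, 5 rose and 5 fell. ZEB2 went from 33.5, 33.8 and 32.9 CPM to 124.3, 118.1 and 123.1 CPM (1.87 ± 0.044, adjusted p = 2.76e-20), and its paralog ZEB1 did not pass (0.06). GFI1 rose by 0.77 from 38.4 CPM, and GFI1B fell by 1.54 from 1.45 CPM. CTBP2 rose by 1.21 from 2.25 CPM. Exons of ZEB2 overlap ZEB2-AS1, those of GFI1B overlap TSC1 and those of CTBP2 overlap ZRANB1.

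Other chromatin enzymes mostly moved by small amounts. Of 30 tested histone methyltransferases and demethylases outside the LSD1 list, 4 rose and 15 fell, with a median of -0.093. KDM5B, which removes methyl groups from the same histone residue as LSD1, fell from 16.9, 19.1 and 17.3 CPM to 7.52, 7.12 and 6.90 CPM (-1.31 ± 0.087, adjusted p = 7.63e-12), and SETDB2 rose (0.68). Of 23 polycomb genes 10 rose, EZH2 (0.31) and MTF2 (0.31) among them, and 5 fell. Of 14 genes of DNA methylation 10 rose and 3 fell, with a median of 0.25. The maintenance factor UHRF1 (0.47), DNMT3A (0.36), DNMT1 (0.23), TET2 (0.37) and TET3 (0.32) were among those that rose. TET1 (0.41, adjusted p = 0.0384) lost its call in several other fits.

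Cytokine receptors and trafficking receptors rose more often than they fell. Of 24 cytokine receptors and STAT factors 20 were tested, 11 rose and 4 fell, with a median of 0.33. Beside IL7R these included STAT5A, which carries the IL-7 signal (2.31 from 1.72 CPM), JAK3 (1.10), IL6R (2.01) and IL2RA (0.85), while STAT3 (-0.54) and STAT6 (-0.58) fell. Of 26 genes of migration and adhesion 22 were tested, 12 rose and 5 fell, with a median of 0.35. CXCR4, which guides cells to the dark zone and to bone marrow, went from 66.9, 63.4 and 62.7 CPM to 186, 166 and 179 CPM (1.46 ± 0.047, adjusted p = 1.11e-17), and S1PR4 (1.69) rose from 0.896 CPM. LRRC32 (GARP), which presents latent TGF-beta on the cell surface, went the other way, from 36.0, 32.2 and 26.2 CPM to 4.54, 4.59 and 4.32 CPM (-2.81 ± 0.107, adjusted p = 1.87e-16). In the TGF-beta pathway, 10 of 16 tested genes rose, among them the inhibitory factors SMAD6 (1.37) and SMAD7 (1.00) and the receptors TGFBR1 (0.60), TGFBR2 (0.51) and TGFBR3 (1.96), and 3 fell, SMAD4 (-0.66) and LRRC32 among them.

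In B-cell receptor signalling 14 of 36 tested genes rose and 9 fell, with a median of 0.049. The largest falls were in PTPN6 and PRKCB, the kinase that links the receptor to NF-kB (-1.52 ± 0.063 from 62.0 CPM), and the proximal kinases SYK (-0.38) and BTK (-0.29) fell as well. The exchange factors VAV2 (1.16) and VAV3 (1.13) and the ligase CBLB (0.91) rose. Of 31 genes of NF-kB and CD40, 23 were tested, 7 rose and 10 fell, with a median of -0.15. CD40 (-0.87), the inhibitor TNFAIP3 (A20, -0.77), REL (-0.58) and RELA (-0.39) fell, and RELB (0.62), TRAF1 (0.98) and STAT5A rose. For MAPK feedback and AP-1, 5 of 18 rose and 7 fell, with DUSP5 (-1.25), a phosphatase of ERK, and EGR1 as the largest falls and FOSL2 (1.18) and JUND (0.98) as the largest rises.

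Genes of DNA replication rose by small amounts and genes of mitosis fell by small amounts. Of 40 genes of G1/S and replication 25 rose and 2 fell, with a median of 0.16, and of 40 genes of G2/M and mitosis 4 rose and 24 fell, with a median of -0.15. The loading factor CDC6 (0.47), UHRF1 and the repressor E2F7 (0.75) were among the former. Cyclin B1 (CCNB1, -0.39), the kinesin KIF23 (-0.44) and ANLN (-0.43) of the contractile ring were among the latter. Of 15 G1 cyclins, their kinases and inhibitors, 9 rose and 0 fell, among them the inhibitors CDKN1A (p21, 0.40), CDKN1B (p27, 0.27), CDKN2C (p18, 0.61) and CDKN2B (p15, 0.76). These counts are from edgeR with adjusted p; 1 gene of this list was lower at an unadjusted p below 0.05, 0 were lower by DESeq2 and 1 by limma-voom.

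Cell death genes moved in both directions. Of 15 tested members of the BCL2 family 8 rose and 4 fell, while 27.4% of all genes tested rose and 28.1% fell. The death-promoting members HRK (0.82, from 99.4 to 175.3 CPM), BBC3 (PUMA, 0.77) and PMAIP1 (NOXA, 0.71) rose, as did the protective BCL2 (0.33), while the protective MCL1 (-0.27) and BCL2L1 (-0.18) and the effectors BAX (-0.34) and BAK1 (-0.21) fell. Of 28 p53 targets tested 11 rose and 10 fell, with a median of -0.020 that turned to 0.0079 with library size alone as the scaling. MDM2, the ligase that degrades p53, stood at 219.8, 238.1 and 244.4 CPM in shSCR and at 617.5, 583.4 and 633.0 CPM in sh68 (1.38 ± 0.046, adjusted p = 1.51e-17), and PERP rose by 1.72 from 1.01 CPM. PLK2 (-0.85) and PLK3 (-0.78) fell. Exons of MDM2 overlap CPM, the gene of carboxypeptidase M.

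**Figure D4:**
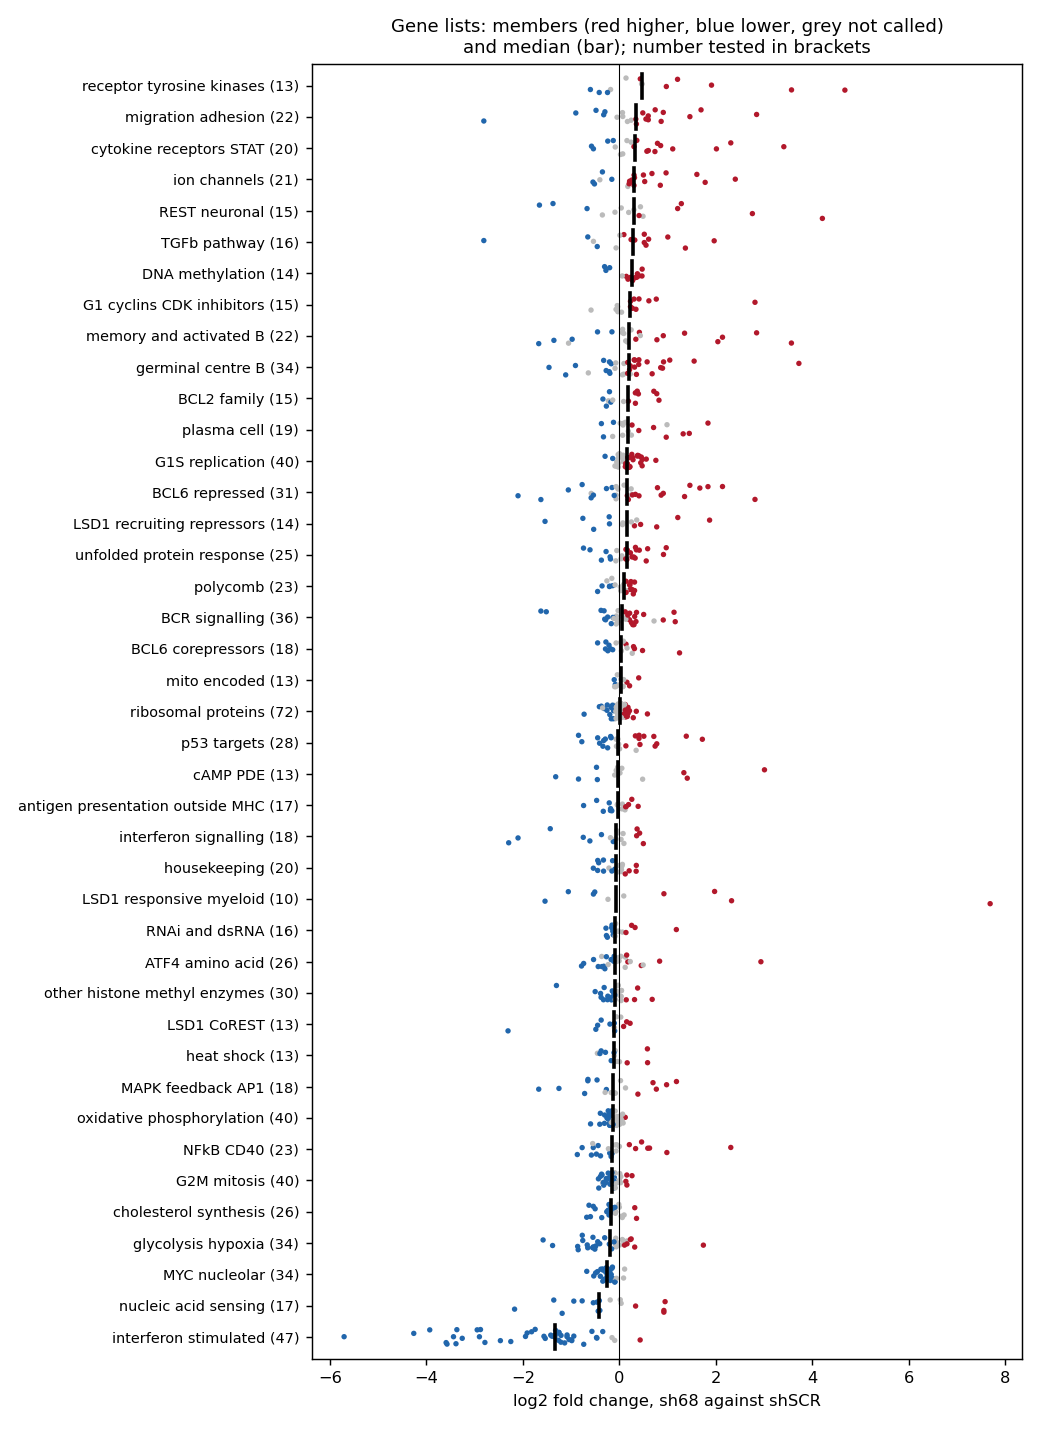
Log2 fold change of sh68 against shSCR (horizontal axis) for the tested members of 41 gene lists (rows, number tested in brackets), red for called higher, blue for called lower, grey for not called, with the list's median as a black bar. The interferon-stimulated list has the lowest median, -1.34, and the medians of the other lists run from -0.42 to 0.46. The rightmost point is LYZ, which has no control reads and whose fitted value is not a bound.

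Nucleolar and glycolytic genes fell more often than they rose, and ribosomal protein genes did not. Of 34 nucleolar targets of MYC 30 fell and 0 rose in the edgeR test, with a median of -0.25. At an unadjusted p below 0.05, 31 fell and 0 rose, and DESeq2 called 27 lower and 0 higher and limma-voom 30 and 0. The ribosome assembly factors NOB1 (-0.68), MYBBP1A (-0.53), RRP9 (-0.49) and NOP16 (-0.46) fell most, and MYC itself fell by 0.16 from 414.9 CPM. Of 72 cytosolic ribosomal protein genes 15 rose and 14 fell, with a median of 0.0034 whose sign changed in 3 other fits. Of 34 genes of glycolysis and hypoxia 19 fell and 6 rose, with a median of -0.19. Among all genes tested, 39.2% fell and 24.6% rose at 10 to 100 CPM, and 44.2% fell and 24.3% rose over 100 CPM. More falls than rises are thus usual at these levels, and the list was not matched by level. ENO1 fell from 3579 to 2253 CPM (-0.67), the largest loss in CPM by the naming rule, and GAPDH (-0.45), PKM (-0.51), PGK1 (-0.54) and ALDOC (-0.87) fell with it. The angiogenic factor VEGFA (-1.39 ± 0.086) and the mTORC1 inhibitor DDIT4 (-1.58 ± 0.082) had the largest falls of the list, and the glucose transporter SLC2A3 (1.74 ± 0.388, from 0.185 CPM) had its largest rise. ENO1 overlaps ENO1-AS1 and PGK1 overlaps ATP7A.

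In oxidative phosphorylation 21 of 40 nuclear genes fell and 1 rose, with a median of -0.14, CYC1 (-0.60) and NDUFV1 (-0.41) at the lower end. The background by level for this list and for cholesterol synthesis is 39.2% lower and 24.6% higher at 10 to 100 CPM. Over 100 CPM it is 44.2% and 24.3%. Of the 13 mitochondrially encoded genes 3 rose and 2 fell, ND1 (0.40) and ND5 (0.21) among the former. Cholesterol synthesis had 17 of 26 tested genes lower and 2 higher, with a median of -0.18, TM7SF2 (-0.68), MSMO1 (-0.63) and LSS (-0.60) falling most. Of 26 ATF4 targets of amino acid supply 11 fell and 5 rose. SHMT2 (-0.79), a mitochondrial serine enzyme, and the transporter SLC7A5 (-0.74) fell. Genes of the unfolded protein response had the opposite balance, with 15 of 25 higher and 6 lower and a median of 0.15. The sensor kinase EIF2AK3 (PERK, 0.91) and XBP1 rose, and the sensor ERN1 (IRE1, -0.61) and SEL1L (-0.75), of the degradation machinery, fell. In the heat shock list 3 of 13 rose and 5 fell, HSPB1 (0.58) and HSP90AB1 (-0.40) among them. Of 20 genes commonly used as housekeeping references 9 fell and 4 rose, ACTB (-0.33) and GAPDH among the former. Among all genes tested over 100 CPM in shSCR, 44.2% fell and 24.3% rose. Of 17 genes of antigen presentation outside the MHC region 7 fell and 5 rose. PSME1 (-0.74) and PSME2 (-0.47), activators of the immunoproteasome that are induced by interferon, fell most.

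Several channels, receptor kinases and neuronal genes rose, some of them from low levels. Of 28 ion channel genes 21 were tested, 15 rose and 4 fell, with a median of 0.30. The voltage-gated channels KCNA3 (1.78) and CACNA1D (2.40) rose from 0.508 and 0.0543 CPM. KCNN4 (0.85) and ORAI2 (0.67), which shape calcium entry in lymphocytes, rose too. Their control levels were 7.43 and 290.7 CPM, and other channels that rose, such as STIM1 (0.25 from 152.3 CPM), were also well above 1 CPM. Of 30 receptor tyrosine kinases 13 were tested, 6 rose and 3 fell, with a median of 0.46 that ran from 0.33 to 0.74 over the alternatives. Kinases with almost no control reads, such as FLT3, entered the test only where an shRNA group was higher. The counts and the median therefore do not describe the whole list. MET, the receptor for hepatocyte growth factor, rose from 15.7 to 59.1 CPM (1.91 ± 0.060, adjusted p = 7.17e-18) beside ERBB4 and FLT3. Of 35 neuronal targets of REST, through which CoREST was found, 15 were tested, 5 rose and 3 fell. Over all genes tested 27.4% rose and 28.1% fell, so the number of rises in this list was near the background. GRIN1 (2.75), CELF4 (1.28) and PCDH9 rose and L1CAM (-1.66) and CHRNB2 (-1.38) fell. The core of the REST element was in the promoter window of 2 tested genes, and neither was in the sets that changed at least 2-fold. Of 19 phosphodiesterase and cyclic AMP genes, 13 were tested, PDE4A, PDE4B (1.33) and PDE3B (1.41) rose and 4 fell, PDE9A (-1.32) the most.

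Of 21 myeloid genes known to respond to LSD1 inhibitors in leukaemia, 10 were tested, 4 rose and 4 fell. LYZ and CLEC7A, both among the rises, had too few control reads to pass the filter unless an shRNA group was higher. The counts therefore do not describe the whole list. LYZ (lysozyme) had 0 reads in all 3 control libraries and 81 over the sh68 libraries. Against a floor of 3 reads over the control group it was at least 24.3-fold higher. SCIMP, an adaptor of antigen-presenting cells, rose from 0.830 to 4.17 CPM (2.32) and CLEC7A from 0.0837 to 0.349 CPM (1.97, adjusted p = 0.00951, lost without shSCR library 2 or without sh68 library 3). SPI1 (-0.51) and MPEG1 (-0.54) fell. The monocyte markers CD14, CSF1R and FCGR1A had at most 0.313 CPM in any of the 6 libraries. With LYZ at its bound it still has the largest rise of the list, whose median does not change.

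Measured in CPM gained or lost, the largest changes were in genes with many reads. The 8 largest gains that met the naming rule were JCHAIN, ND1, ND5, PRKDC, SYNE2, ALDH5A1, RPLP1 and LAPTM5. LAPTM5, a lysosomal protein that lowers receptor levels on lymphocytes, went from 207.7, 216.8 and 207.7 CPM to 622.4, 599.9 and 601.8 CPM (1.53 ± 0.055, adjusted p = 8.15e-17). ALDH5A1, an enzyme of GABA breakdown, went from 369.8 to 827.3 CPM (1.16), and its exons overlap GPLD1. PRKDC, the DNA repair kinase, rose from 1630 to 2113 CPM (0.37). The 8 largest losses were ENO1, MX1, GAPDH, ACTB, ND4, PKM, ACTG1 and FCRL3.

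Many of these changes differed in size from those with sh72 in the same fit, although KDM1A fell with sh72 as well (-2.54, difference from sh68 adjusted p = 0.00261). Over all genes, the contrast of sh72 minus sh68 passed for 8839 (56.2%). Of the 1174 genes at least 2-fold higher with sh68, 847 differed, and 779 of those were higher with sh68 than with sh72. Of the 276 at least 2-fold lower, 165 differed and 156 of those were lower with sh68 than with sh72. Choosing genes by their change with sh68 favours such an outcome, and genes chosen by sh72 were not counted. These counts therefore do not show which shRNA had the larger effects. Both contrasts share the control libraries. IL7R had 3.41 with sh68 and 0.81 with sh72 (difference adjusted p = 2.61e-21). RAG2 had 3.06 and -0.16, FCMR 2.96 and -0.18, ZEB2 1.87 and 0.23, LAPTM5 1.53 and -0.27 and CXCR4 1.46 and -0.07. Falls of interferon genes were also larger with sh68, at -5.71 and -1.02 for IFI44L and -3.59 and -0.91 for DDX60. For ERBB4 (3.57 and 3.48), DTHD1 (3.19 and 3.17) and MYBPC1 (3.13 and 3.14) the difference did not pass, with adjusted p of 0.56, 0.931 and 0.965. LRRC32 fell slightly less with sh68 (-2.81 and -3.16, adjusted p = 0.041). Which of these effects belong to the depletion of LSD1 and which to either shRNA cannot be told apart with 1 control shRNA.

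**Figure D5:**
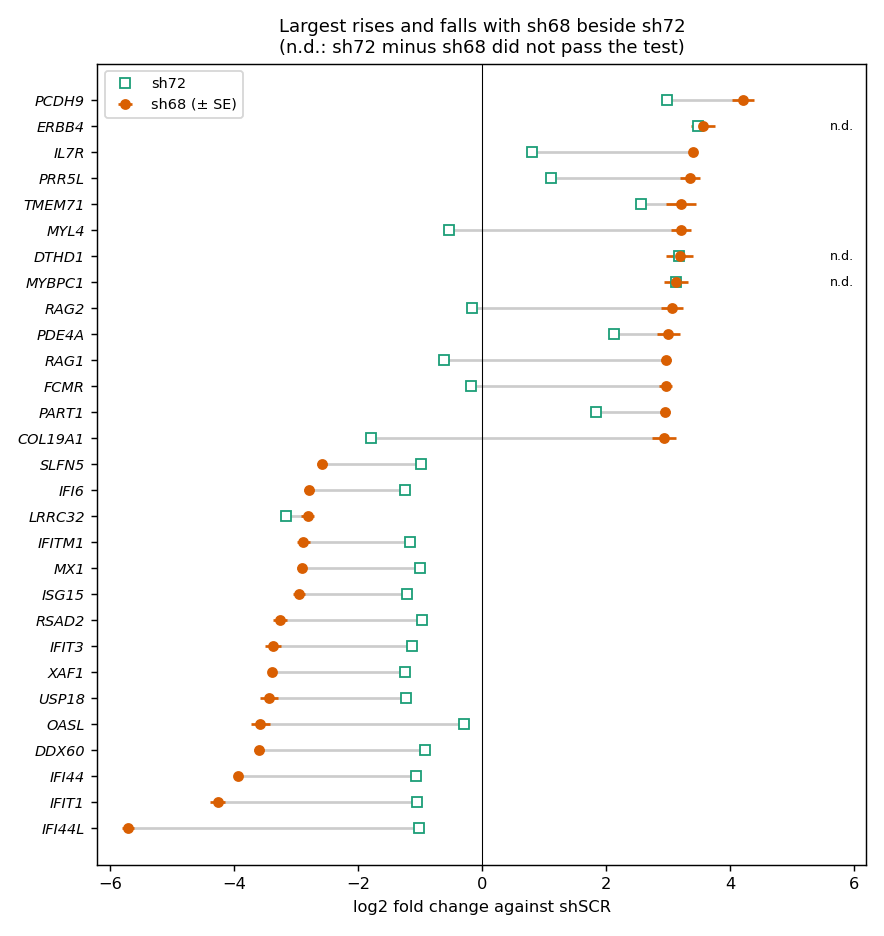
Log2 fold change against shSCR (horizontal axis) of the named genes with the largest rises and falls with sh68 (filled circles, ± SE) beside the value with sh72 (open squares), with n.d. where their difference did not pass. With sh72 IL7R is at 0.81, RAG2 at -0.16 and RAG1 at -0.61, while the points of ERBB4, DTHD1 and MYBPC1 nearly coincide.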

How the data were processed

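The authors deposited 1 table of raw counts (reads per gene in each library, not normalized). Per the submitters' processing notes, STAR 2.5.2, featureCounts 1.5.2, CASAVA 1.8.2 and hg38 were used. The sources used here do not give the annotation, parameters or strand setting, so reads of genes with overlapping exons are uncertain. Beside the pairs given with their values, such overlaps hold for ADARB1, ANLN, BBC3, CACNA1D, CCND2, CD22, CD80, DICER1, GRIN1, HMG20B, IRF3, L1CAM, MYBBP1A, NDUFV1, NOP16, PLK3, PSME1, PSME2, RPS18, SHMT2, TM7SF2, TRIM25 and XPO5. Positions and promoters came from RefSeq (GRCh38.p14, 23565 symbols placed, 16764 with a promoter), GC content and transcript length from GENCODE (19378 symbols).

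Counts were fitted with edgeR 4.0.16 in R 4.3.3. Genes passed filterByExpr (minimum count 10, minimum total 15), libraries were scaled by TMM, and 1 quasi-likelihood model with a term per shRNA was fitted to all 9 libraries (common biological coefficient of variation 0.0394). P values were adjusted over 15725 genes by Benjamini and Hochberg and called below 0.05. Every adjusted p is from this test. SE is the absolute log2 fold change over the square root of F. CPM are TMM-scaled, as mean ± SD, and compare a gene between libraries, not genes with each other. The scripts were tested on simulated data.

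Genes named were those with the 15 largest rises and falls on the log2 scale and the 8 largest gains and losses in CPM among 6726 genes that passed and had a symbol, groups that did not overlap and a mean log2 CPM of 1 or more, up to 4 changed members per list, and genes fixed by name. A few genes that the rule took are not reported here. Others given as list members show a list's content, and these, like the genes of windows, were chosen after their values were seen. The lists came from general knowledge, and the members, lists and rules were chosen with earlier results of these data known. Alternatives were RLE scaling, library size alone, other filters, DESeq2 1.42.0, limma-voom (limma 3.58.1), the 6 libraries alone, a robust fit, a replicate block, a null of at most 1.5-fold, offsets for GC content and length, and each library left out.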

Additional observations from a re-analysis of the deposited data

Results flagged for a closer look

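Of the 30 genes with the largest changes with sh68, 2 passed the test in opposite directions with the 2 shRNAs, and the difference of sh72 minus sh68 passed for both. RAG1 had 2.97 with sh68 and -0.61 with sh72, a difference of -3.58. COL19A1 had 2.93 and -1.79, a difference of -4.72. No explanation for these differences was tested.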

How the results depend on the processing

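No gene called changed was called in the other direction under any alternative tried, and KDM1A kept its fall under all of them, from -2.34 to -2.27. With a minimum of 1.5-fold, 1477 genes passed, 1142 higher and 335 lower, and 83 of 204 named genes lost their call. With at least 1 CPM in 3 libraries, which drops low genes, 720 genes were at least 2-fold higher and 168 lower. DESeq2 called 8003 genes, limma-voom 8712, RLE scaling 8679, and library size alone 8602, of which 54.1% were higher against 49.4% in the edgeR fit. Leaving out 1 library gave 7873 to 8096. Residuals of same-numbered libraries correlated weakly, at 0.0164 to 0.0506, and those of differently numbered libraries at -0.0683 to 0.0244. Whether the numbers mark pairs is not stated in the sources. The replicate block gave 9173 genes, 4487 higher and 4686 lower, with 1173 and 280 at least 2-fold, against 8727 in the main fit. Medians of the lists for antigen presentation, BCL6 corepressors, p53 targets, ribosomal proteins, phosphodiesterases and housekeeping genes changed sign in 1 to 4 alternatives. TET1, HDAC2, ND2, ND4, CD79B, CLEC7A and RPS18 lost their call in alternatives beside that minimum, and CD79A gained one in some. With 3 libraries a group, genes under 1 CPM rest on few reads, and the replicates share 1 line.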
